A study of Mus musculus with 6 samples.

Results

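Heat shock proteins and their chaperone partners were followed in RAW264.7, a mouse line of macrophage character, with and without low-intensity pulsed ultrasound (LIPUS). Members were the protein-coding genes whose symbols mark them as HSP70 (Hspa), HSP110 (Hsph1), HSP90 (Hsp90), small heat shock protein (Hspb), mitochondrial chaperonin (Hspd1, Hspe1), DnaJ (Dnaja, Dnajb, Dnajc) or BAG (Bag) proteins, subunits of the CCT chaperonin (Cct, Tcp1) or the heat shock factors Hsf1 and Hsf2. Hspa5 and Dnajb9, which belong to the endoplasmic reticulum stress response, were left out. This gave 88 genes of the 39089 in the table, of which 21770 were protein coding.

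All 6 libraries came from wild-type cells kept for 48 h with 100 ng/mL of the endotoxin lipopolysaccharide (LPS). The LPS group had 3 libraries without ultrasound. The LPS+LIPUS group had 3 libraries from cells that also had 2 LIPUS sessions of 25 min, spaced by 24 h, at an intensity of 45 mW/cm2. The labels give no culture without LPS, no sham handling and no interval between the last session and lysis, so the response to LPS itself and an early, passing heat response were not measured here. Nothing in the labels says that the libraries of a group came from separate cultures, and p-values then measure only the spread between these libraries.

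Poly(A) RNA libraries held 14171061 to 15956693 counted reads, and 12571 genes passed the filter on low counts. Of 10 macrophage markers all 10 were tested, and their summed level ranged from 19047 to 19513 TPM, a level scaled by depth and gene length, in LPS and from 18345 to 19559 TPM in LPS+LIPUS. Most of that sum was Lyz2, at 15743.6 to 16307.3 TPM in LPS and 15087.5 to 16413.3 TPM in LPS+LIPUS. The sum therefore says little of scarcer markers such as Fcgr1, at 6.45 to 9.02 TPM in LPS and 7.60 to 9.39 TPM in LPS+LIPUS. The 10 markers of fibroblasts, epithelium, lymphocytes and endothelium summed to 1.07 to 1.19 TPM in LPS and 0.505 to 1.18 TPM in LPS+LIPUS, with Epcam, Krt18 and Cdh5 at 0 in every library. Among them Col1a1, a fibroblast collagen, was tested and had 11, 25 and 16 reads in LPS and 9, 3 and 7 reads in LPS+LIPUS, and its part in the results was not tested.

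Chaperones bind unfolded protein and release it in cycles driven by ATP. HSP70 proteins take up short unfolded stretches handed over by DnaJ co-chaperones, nucleotide exchange factors such as HSP110 and BAG proteins reset them, and HSP90 and the ring-shaped chaperonins finish particular clients. Heat shock factor 1 (HSF1), held inactive by chaperones in unstressed cells, forms trimers when unfolded protein accumulates and binds heat shock elements, inverted repeats of a GAA unit, upstream of the inducible genes. In macrophages HSP70 and HSP90 also support the stability of signalling proteins downstream of endotoxin sensing.

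Promoters are given for the inducible pair, on which the results turn, and for Hspe1 and Hsph1, which have an extended heat shock element. Dnajb6 also has one and its window is not printed. Sequences are RefSeq windows of 300 bases, from 250 bases before to 50 after an annotated start, in GRCm38.p6, the assembly behind mm10. Capitals mark matches to GAANNTTC or TTCNNGAA, each of which reads the same on both strands. A GAANNTTC and a TTCNNGAA that overlap by 3 bases, in either order, form a 3-unit element. Hspa1b and Hspa1a are neighbouring HSP70 genes on the minus strand of chromosome 17, with 10120 bases between them, and their windows differ at 4 of 300 bases:
Hspa1b, chr17:34959189-34959488, minus strand: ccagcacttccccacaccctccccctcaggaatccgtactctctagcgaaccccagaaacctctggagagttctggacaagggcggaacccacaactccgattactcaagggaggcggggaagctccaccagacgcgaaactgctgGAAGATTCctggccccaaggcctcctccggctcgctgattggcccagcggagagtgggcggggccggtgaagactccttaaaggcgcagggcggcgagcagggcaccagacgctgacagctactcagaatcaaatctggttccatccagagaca
Hspa1a, chr17:34972107-34972406, minus strand: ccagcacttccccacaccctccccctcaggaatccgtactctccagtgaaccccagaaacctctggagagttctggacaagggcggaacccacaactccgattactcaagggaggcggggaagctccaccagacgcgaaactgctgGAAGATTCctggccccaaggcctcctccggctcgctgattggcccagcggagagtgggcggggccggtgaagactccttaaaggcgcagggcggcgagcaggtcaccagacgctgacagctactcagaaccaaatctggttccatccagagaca
Each holds 1 match, beginning 104 bases before the start. The constitutively abundant chaperonin pair Hspe1 and Hspd1 shares a promoter, and the Hsph1 window is given as another with a 3-unit element:
Hspe1, chr1:55087898-55088197, plus strand: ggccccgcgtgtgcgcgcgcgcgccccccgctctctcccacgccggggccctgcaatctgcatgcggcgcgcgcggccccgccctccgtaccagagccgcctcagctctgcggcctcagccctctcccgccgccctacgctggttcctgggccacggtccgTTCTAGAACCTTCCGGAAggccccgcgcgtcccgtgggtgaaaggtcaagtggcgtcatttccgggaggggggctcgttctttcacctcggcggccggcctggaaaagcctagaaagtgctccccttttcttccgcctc
Hsph1, chr5:149636287-149636586, minus strand: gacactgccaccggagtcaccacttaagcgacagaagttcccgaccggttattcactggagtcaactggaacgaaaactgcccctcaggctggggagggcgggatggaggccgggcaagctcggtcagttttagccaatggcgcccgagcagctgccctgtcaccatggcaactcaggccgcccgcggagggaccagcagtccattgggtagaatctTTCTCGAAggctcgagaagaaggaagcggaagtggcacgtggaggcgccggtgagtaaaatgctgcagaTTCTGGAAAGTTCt
The Hspe1 window overlaps 1 of the Hspd1 windows by 285 bases and carries 3 overlapping matches, beginning 89, 84 and 79 bases before the Hspe1 start. In the Hsph1 window a single match begins 33 bases before the start, and the 3-unit element lies beyond the start.

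RefSeq windows were found for 71 of the 88 genes. The 17 genes without one include Hspa8, Hsp90aa1, Hsp90ab1 and Hsf1, whose promoters were therefore not searched. Either 8-base motif was present in 21 of these 71 genes, in 23 of their 91 windows, and in 15.1% of all 32851 windows. The 3-unit element was present in Dnajb6, Hspd1, Hspe1 and Hsph1, in 6 of the 91 windows, and in 0.603% of all windows. A match describes these letters and is not a measured binding site.

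Levels spread over several orders of magnitude, and most chaperone RNA came from constitutive genes. The members summed to 10200 ± 249 TPM in LPS and 10292 ± 262 TPM in LPS+LIPUS (SD, n = 3 each). CCT subunits held 26.1% of this sum, HSP90 genes 25.5%, HSP70 genes outside the inducible pair 22.7% and the mitochondrial chaperonin 6.70%. The inducible pair Hspa1a and Hspa1b held 0.0935%. The most abundant member was Hspa8, the constitutive cytosolic HSP70, at a mean of 1826 TPM over the 6 libraries, followed by Hsp90ab1 at 1544 TPM. Of the 88 members 71 were tested, 11 had reads but fell below the filter, and 6 had none.

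**Figure D1:**
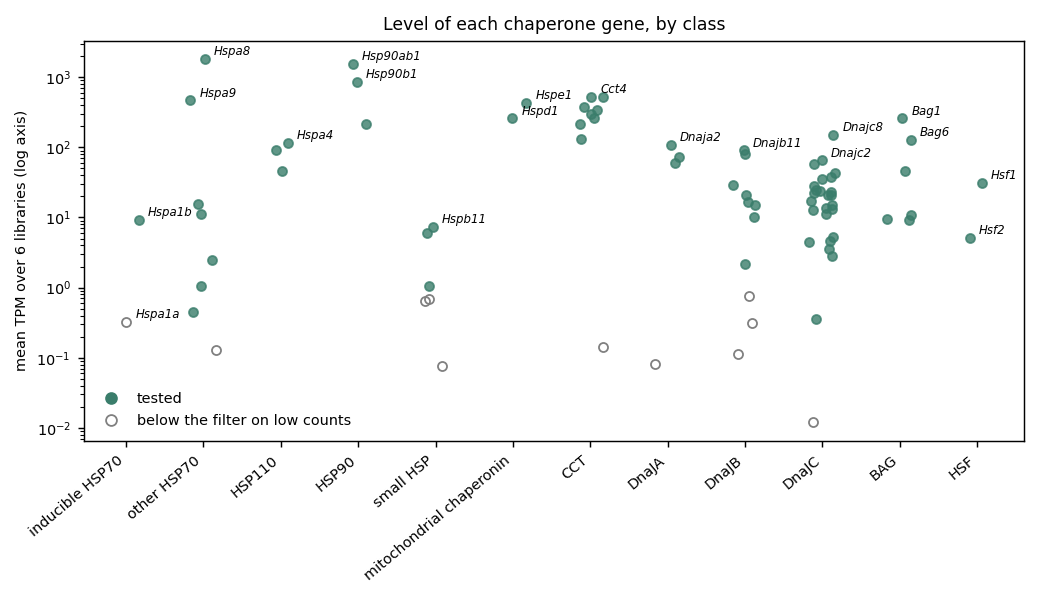
Mean TPM over the 6 libraries (log axis) of each member with reads, by class; filled points were tested and open points fell below the filter on low counts. Hspa8 at 1826 TPM and Hsp90ab1 at 1544 TPM lie highest, Hspa1b lies at 9.25 TPM and Hspa1a at 0.327 TPM.

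The comparison asked whether chaperone RNA levels differed with ultrasound in endotoxin-treated macrophages. Most chaperone genes had like levels in both groups, with a median absolute log2 fold change of 0.043 over tested members, against 0.066 for all tested genes. The median standard error was also smaller for members, at 0.079 against 0.090, and genes were not matched by level. Hspa1b had the largest log2 fold change among tested members, at 7.07 ± 2.38 CPM in LPS and 18.5 ± 14.3 CPM in LPS+LIPUS (SD, n = 3 each), where CPM is the count scaled by depth with TMM factors. None of the 71 tested members passed an adjusted p of 0.05 in edgeR's quasi-likelihood test with Benjamini-Hochberg adjustment, where 0% of the 12571 genes tested did. DESeq2 and limma-voom also called 0 members, and each called 0% of the same 12571 genes.

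Without adjustment 3 members, Hspa1b, Hsph1 and Dnajc25, had p under 0.05, all higher in LPS+LIPUS. That is 4.23% of the tested members, where 4.61% of all tested genes had p under 0.05, 2.99% being higher and 1.61% lower. The groups did not overlap in CPM in 2 members, or 2.82%, against 9.72% of all tested genes, of which 5.09% were higher and 4.63% lower. Dnajc25 was higher and Hspa2 lower in all 3 LPS+LIPUS libraries. In the deposited TPM the groups did not overlap in 3 members, Hsph1, Dnajb2 and Dnajc25, all higher, and Hspa2 overlapped. That is 4.23% of the tested members, against 7.81% of all tested genes, of which 5.46% were higher and 2.35% lower. Signs were positive in 32 members and negative in 39, with a median log2 fold change of -0.010 beside -0.0052 over all tested genes. For 50 members the 95% interval stayed inside 1.25-fold in either direction, and for 62 inside 1.5-fold. In bulk RNA, fewer cells with a transcript and less of it per cell cannot be told apart.

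**Figure D2:**
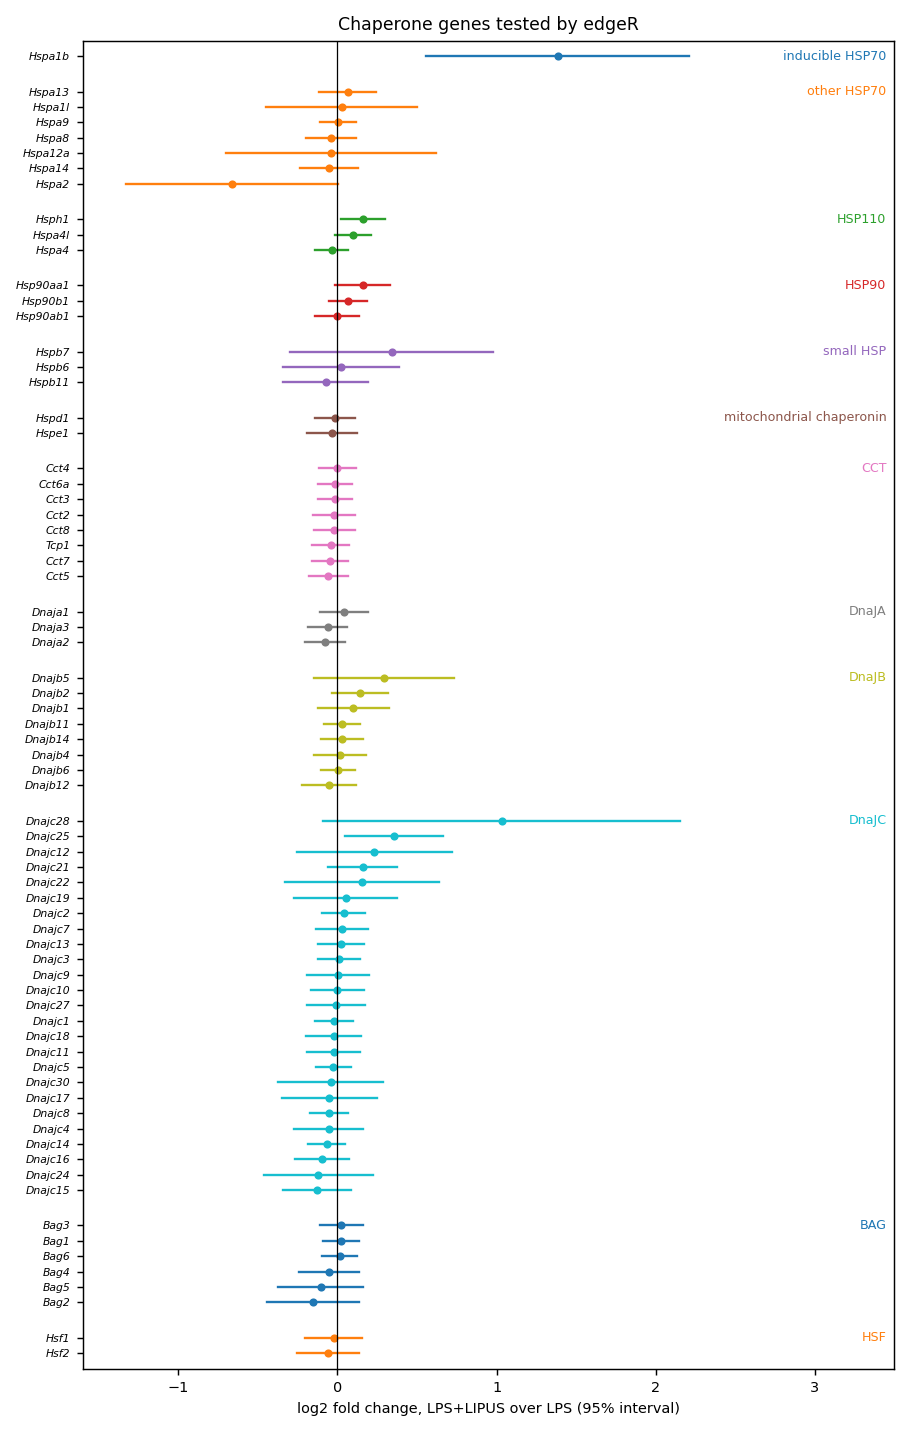
Log2 fold change of LPS+LIPUS over LPS for the 71 tested members, by class, with points for edgeR's estimate and lines for its 95% interval. Hspa1b at 1.38 and Dnajc28 at 1.03 lie farthest to the right, and 62 intervals stay within 1.5-fold of no difference.

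Hspa1b (chr17:34956429-34959238, minus strand) encodes a stress-inducible cytosolic HSP70 and was the inducible gene with enough reads to test. It had 140, 69 and 118 reads in LPS and 233, 484 and 82 reads in LPS+LIPUS, or 8.90, 4.38 and 7.94 CPM in LPS and 15.8, 33.9 and 5.66 CPM in LPS+LIPUS. LPS+LIPUS libraries 1 and 2 lay above all 3 LPS libraries, while LPS+LIPUS library 3 lay between LPS libraries 2 and 3, so the groups overlapped. The log2 fold change was 1.38 ± 0.39 (SE), with a 95% interval of 0.56 to 2.21, an unadjusted p of 0.0024 and an edgeR adjusted p of 0.699.

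The size of this difference moved with single libraries. Without LPS+LIPUS library 2 the log2 fold change was 0.61 (edgeR adjusted p = 0.672), and without LPS+LIPUS library 3 it was 1.82 (edgeR adjusted p = 0.0019), where Hspa1b was the 1 member among the 0.047% of tested genes called. With no filter on low counts Hspa1b was the 1 member called (edgeR adjusted p = 6.58e-26), among 0.149% of the genes then tested. That adjusted p lay far from the 0.699 of the filtered fit, and the cause was not tested. The edgeR exact test on all genes, also without this filter, called 0 of the 88 members and 0.0179% of all genes. Within-group spread of Hspa1b was an SD of 0.983 on the log2 scale, against a median of 0.113 over tested members and 0.112 over all tested genes. Among 3133 genes within 2-fold of its level 1 was more variable, Rn7s1, a small cytoplasmic RNA gene named after its value was seen.

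Hspa1a (chr17:34969359-34972156, minus strand) encodes an almost identical protein and had 5, 3 and 7 reads in LPS and 8, 17 and 0 reads in LPS+LIPUS. LPS+LIPUS library 2 was highest and library 3 had no read, where 0 reads allow up to 3. The summed reads were 15 in LPS and 25 in LPS+LIPUS, below the filter, giving a depth-scaled ratio of 1.78 with an exact 95% interval of 0.901 to 3.63 that covers counting error only. Without LPS+LIPUS library 2 the log2 ratio of 0.83 became -0.24.

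Reads of this pair can be shared between the copies. Of the 150-base windows in the GENCODE transcript of Hspa1a, 38.1% also occur in Hspa1b, and 40.5% of those of Hspa1b occur in Hspa1a, so how the authors' counting split such reads affects each gene alone. Hspa1a made up 3.32% to 5.60% of the reads of the pair in the other 5 libraries. Their sum is the safer quantity. It was 9.22, 4.57 and 8.41 CPM in LPS and 16.4, 35.1 and 5.66 CPM in LPS+LIPUS, a difference in means of 11.7 CPM. That difference was 3.63 CPM without LPS+LIPUS library 2 and 18.4 CPM without LPS+LIPUS library 3. LPS+LIPUS library 3 lay within the LPS range, and an exact two-sided permutation test gave p = 0.3, where 3 against 3 libraries cannot go below 0.1.

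Set against the constitutive Hspa8, Hspa1b stayed a minor HSP70 transcript. Its TPM was 0.336%, 0.188% and 0.311% of that of Hspa8 in LPS and 0.699%, 1.23% and 0.245% in LPS+LIPUS. LPS+LIPUS library 3 again lay inside the range of the LPS libraries.

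**Figure D3:**
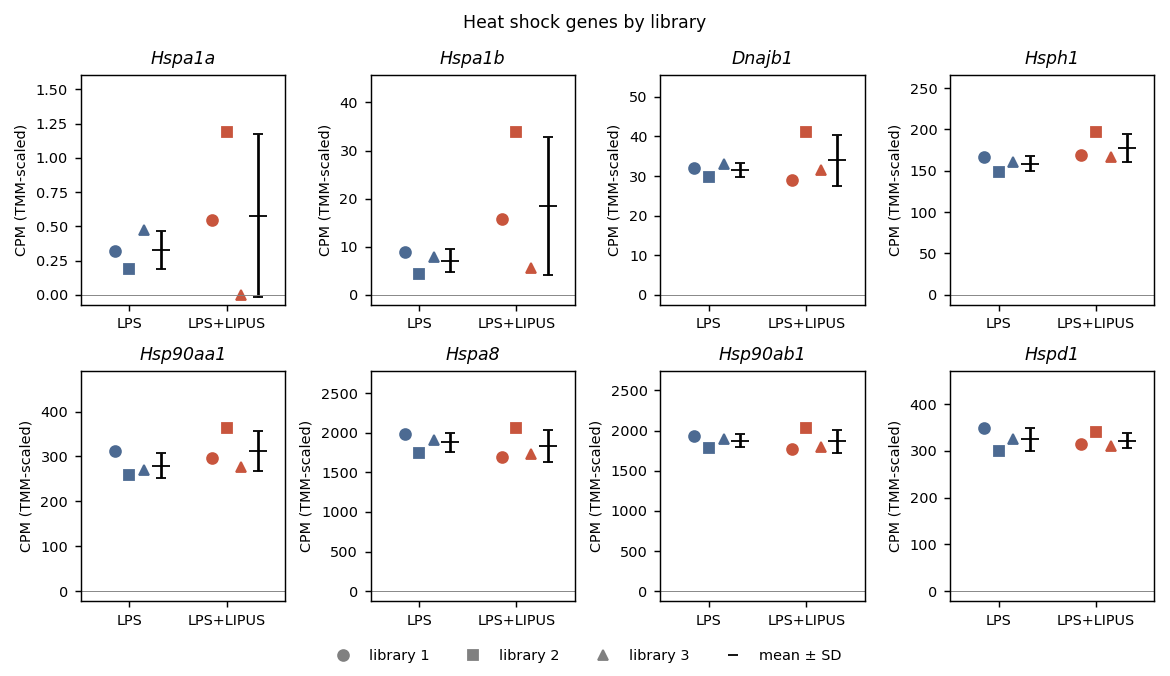
TMM-scaled CPM of 8 heat shock genes in each library, with markers for libraries 1 to 3 and bars for the mean ± SD (n = 3). Hspa1b reaches 33.9 CPM in LPS+LIPUS library 2 and 5.66 CPM in library 3, whereas Hspa8, Hsp90ab1 and Hspd1 overlap between the groups.

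The abundant constitutive HSP70 genes Hspa8 and Hspa9 had intervals inside 1.25-fold. Hspa8, which folds nascent protein and uncoats clathrin vesicles, had 1983, 1747 and 1909.6 CPM in LPS and 1699, 2059.7 and 1733 CPM in LPS+LIPUS. Its LPS+LIPUS libraries spanned the LPS range, with library 2 highest of all 6, and the log2 fold change was -0.039 ± 0.075 with an interval of -0.20 to 0.12. Hspa9, the mitochondrial HSP70 that pulls proteins through the inner membrane, had 690.0 ± 15.4 CPM in LPS and 692 ± 26.3 CPM in LPS+LIPUS (SD, n = 3 each), with a difference of 0.0045 (-0.11 to 0.12) on the log2 scale. Hspa13, a microsomal HSP70-like protein, and Hspa14, a ribosome-associated one, had log2 fold changes of 0.063 and -0.052.

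Hspa2, an HSP70 best known from spermatogenic cells, was the lowest in fold change of the tested members. It had 24, 25 and 32 reads in LPS and 13, 14 and 21 reads in LPS+LIPUS, each LPS+LIPUS library below each LPS library in CPM. The log2 fold change was -0.66 ± 0.32 (-1.33 to 0.0060), with an unadjusted p of 0.052 and an edgeR adjusted p of 0.999. Hspa1l, a testis-type HSP70 next to Hspa1a, and Hspa12a had log2 fold changes of 0.026 and -0.041, and Hspa12b had 13 reads in LPS and 11 in LPS+LIPUS.

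The HSP110 proteins exchange nucleotide on HSP70 and keep aggregates soluble. Hsph1, the heat-inducible member, had 167, 149 and 160.3 CPM in LPS and 169, 197 and 167 CPM in LPS+LIPUS. LPS+LIPUS libraries 1 and 2 lay above all 3 LPS libraries and library 3 just below LPS library 1, so the groups overlapped in CPM. The deposited TPM did not overlap, at 89.6, 82.8 and 87.0 TPM in LPS and 94.2, 102 and 97.0 TPM in LPS+LIPUS. Its log2 fold change was 0.16 ± 0.065 (0.025 to 0.30), with an unadjusted p of 0.023 and an edgeR adjusted p of 0.999. Without LPS+LIPUS library 2 the log2 fold change of Hsph1 was 0.078, and the highest value with 1 library left out was 0.21, without LPS+LIPUS library 3. Hspa4l had a log2 fold change of 0.10 ± 0.054 and the constitutive Hspa4 of -0.035 ± 0.049. As a share of the TPM of Hspa4, Hsph1 stood at 76.2%, 70.5% and 78.0% in LPS and 82.8%, 94.5% and 79.9% in LPS+LIPUS, which do not overlap. This ratio was not tested. The other inducible-to-constitutive shares computed, Hspa1b to Hspa8, Hsp90aa1 to Hsp90ab1 and Dnajb1 to Dnaja2, overlapped between the groups. Dnajb1 stood at 16.7%, 17.9% and 20.0% of Dnaja2 in LPS and 18.2%, 24.0% and 19.2% in LPS+LIPUS.

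HSP90 matures kinases and receptors. Hsp90aa1, its stress-inducible cytosolic form, had 311, 258 and 269.7 CPM in LPS and 296, 363 and 277 CPM in LPS+LIPUS, a log2 fold change of 0.16 ± 0.083 (-0.017 to 0.33). Library 2 of LPS+LIPUS was highest, and library 1 of LPS lay above the other 2 LPS+LIPUS libraries. The log2 fold change was 0.034 without LPS+LIPUS library 2, 0.24 without LPS library 1 and also 0.24 without LPS+LIPUS library 3. The constitutive Hsp90ab1 had 1935, 1782 and 1898 CPM in LPS and 1765, 2031 and 1799 CPM in LPS+LIPUS, and its log2 fold change of -0.0049 (-0.14 to 0.13) takes the positive sign with upper-quartile scaling. Hsp90b1, the endoplasmic reticulum form that folds Toll-like receptors, had 1114 ± 53.4 CPM in LPS and 1166 ± 28.8 CPM in LPS+LIPUS (SD, n = 3 each), which gave 0.066 on the log2 scale. By TPM, Hsp90aa1 amounted to 14.1%, 12.8% and 12.5% of Hsp90ab1 in LPS and 14.8%, 15.7% and 13.5% in LPS+LIPUS, an overlapping pair of groups.

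Small heat shock proteins hold unfolding protein without ATP and were scarce in these cells, at 0.155% of chaperone TPM. Hspb1, the actin-linked HSP27 that many cells induce on heating, had 5, 2 and 3 reads in LPS and 2, 7 and 6 reads in LPS+LIPUS, below the filter. Hspb8 had 3 reads in each group, Hspb9 had 7 in LPS and 12 in LPS+LIPUS, and Hspb2 and Hspb3 had none. The 3 tested genes were Hspb11 (7.37 TPM), which despite its symbol is a subunit of intraflagellar transport, Hspb6 (6.07 TPM) and Hspb7 (1.07 TPM). Their log2 fold changes were -0.075 ± 0.13, 0.024 ± 0.17 and 0.34 ± 0.30, each smaller than or close to its standard error.

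In mitochondria Hspd1 (HSP60) forms the folding chamber and Hspe1 (HSP10) its lid. Hspd1 had 349, 301 and 325 CPM in LPS and 315, 339.8 and 309.7 CPM in LPS+LIPUS, and Hspe1 had 169, 151 and 162 CPM in LPS and 159, 177 and 135 CPM in LPS+LIPUS. For both genes the groups overlapped, and log2 fold changes were -0.015 ± 0.060 and -0.035 ± 0.075. By TPM, Hspe1 stood at 163% to 169% of Hspd1 in LPS and 147% to 175% in LPS+LIPUS.

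The CCT chaperonin folds actin and tubulin in a ring of 8 different subunits, and its genes lay close together. All 8 tested genes had negative signs, yet within a narrow band, from -0.059 for Cct5 to -0.00092 for Cct4. The sign of Cct4 turned positive with other scalings, and also under the separate models of DESeq2 and limma-voom. Every interval lay within 1.25-fold. Tcp1 had 339.9, 299 and 316 CPM in LPS and 297, 318 and 312 CPM in LPS+LIPUS, and Cct5 had 409.8, 373 and 401 CPM in LPS and 365, 408 and 363 CPM in LPS+LIPUS. In both genes LPS library 1 was highest and the groups overlapped. Cct7 had a log2 fold change of -0.048 ± 0.054. Summed TPM of the class was 2677 ± 74.0 in LPS and 2664 ± 73.7 in LPS+LIPUS (SD, n = 3 each). Cct6b, a testis-enriched paralogue, had 19 reads in LPS and 12 in LPS+LIPUS, and Cct8l1 had none.

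DnaJ proteins deliver clients to HSP70 and stimulate its ATPase. Dnajb1 (HSP40), the heat-inducible partner of cytosolic HSP70, had 32.1, 29.7 and 33.2 CPM in LPS and 29.0, 41.2 and 31.6 CPM in LPS+LIPUS. LPS+LIPUS library 2 was highest and library 1 lowest of the 6, and the log2 fold change of 0.10 ± 0.11 (-0.12 to 0.32) became -0.062 without LPS+LIPUS library 2. Dnaja1, a farnesylated cytosolic DnaJ protein, had 109, 100.4 and 100.4 CPM in LPS and 99.0, 122 and 98.0 CPM in LPS+LIPUS and a log2 fold change of 0.040 ± 0.072, likewise negative, at -0.068, without that library. Dnaja2 and Dnaja3, the latter mitochondrial, had log2 fold changes of -0.077 ± 0.060 and -0.062 ± 0.059.

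Of 8 tested Dnajb genes 7 had positive signs, none passing the adjusted test. The most abundant, Dnajb11, a co-chaperone of the endoplasmic reticulum, had a log2 fold change of 0.029 ± 0.053. Dnajb2 had 0.14 ± 0.084 and Dnajb5 0.29 ± 0.21. Dnajb6, an inhibitor of amyloid-type aggregation whose promoter carries the 3-unit element, had a log2 fold change of 0.0035 (-0.10 to 0.11) at 199 ± 5.40 CPM in LPS and 199 ± 7.03 CPM in LPS+LIPUS (SD, n = 3 each).

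The Dnajc genes split into 11 positive and 14 negative of 25 tested. Dnajc25 had 6.42, 7.17 and 7.20 CPM in LPS and 7.35, 9.32 and 9.95 CPM in LPS+LIPUS, the lowest LPS+LIPUS library lying just above the highest LPS library. Its log2 fold change was 0.36 ± 0.15 (0.048 to 0.66), with an unadjusted p of 0.026 and an edgeR adjusted p of 0.999. Dnajc28 had 4, 2 and 12 reads in LPS and 15, 9 and 11 reads in LPS+LIPUS, with LPS library 3 inside the LPS+LIPUS range, and a log2 fold change of 1.03 ± 0.53 (-0.091 to 2.15). This became 2.03 without LPS library 3 and 0.61 without LPS library 2. Dnajc21, a ribosome biogenesis factor, had 0.16 ± 0.10, and Dnajc8, a splicing-associated protein and the most abundant of the class, -0.053 ± 0.057.

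BAG proteins release nucleotide and client from HSP70. Bag3, an HSF1 target in heated cells that routes clients to autophagy, had 53.9, 55.9 and 58.9 CPM in LPS and 55.3, 57.6 and 58.7 CPM in LPS+LIPUS, overlapping groups and a log2 fold change of 0.025 ± 0.063 (-0.11 to 0.16). Bag1, the most abundant, had 0.023 ± 0.054, and Bag2, Bag4 and Bag5 had -0.15 ± 0.14, -0.054 ± 0.089 and -0.11 ± 0.13. Both transcription factors had intervals inside 1.25-fold. Hsf1 had 39.7 ± 5.07 CPM in LPS and 39.0 ± 1.17 CPM in LPS+LIPUS (SD, n = 3 each) and Hsf2 23.8 ± 2.42 CPM in LPS and 22.9 ± 1.69 CPM in LPS+LIPUS (SD, n = 3 each). Their log2 fold changes were -0.024 ± 0.085 and -0.059 ± 0.094. HSF1 is controlled mainly at the protein level, which was not measured here.

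The remaining members below the filter were DnaJ genes. Dnaja4 had 9 reads in LPS and 4 in LPS+LIPUS, and Dnajb7 had 12 and 4. Dnajb13 had 21 and 19 reads, Dnajb3 had 2 and 3, and Dnajc6 had 3 and 0. Dnajb8, Dnajc5b and Dnajc5g had none, which allows up to 3 reads over the 6 libraries, or 0.033 CPM.

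The library that most often held the highest value was LPS+LIPUS library 2. It was highest in 21 of 71 tested members, or 29.6%, beside 20.6% of all tested genes, and LPS+LIPUS library 3 was highest in 20.2% of all tested genes. Library 2 was also lowest in 15 of the 71 members, or 21.1%, beside 21.7% of all tested genes, slightly more than it was highest in. Among genes averaging at least 100 CPM it was highest in 13 of 27 members, or 48.1%, beside 32.4% of 2042 genes. Eef1a1, a translation elongation factor, had 19243, 16912 and 18362 CPM in LPS and 16482, 19175 and 16819.6 CPM in LPS+LIPUS. There LPS library 1 was highest and LPS+LIPUS library 2 next, unlike Hspa8, which was highest in LPS+LIPUS library 2. Whether the composition of LPS+LIPUS library 2 moves the members was not tested.

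Hspa1b departed more than the other chaperone genes plotted by library, at 1.76 above its 6-library mean on the log2 scale in LPS+LIPUS library 2, where Dnajb1 stood at 0.34, Hsp90aa1 at 0.31, Hsph1 at 0.24 and Dnaja1 at 0.22. In LPS+LIPUS library 3 Hspa1b stood at -0.80 and each of these 4 between -0.091 and -0.0074. Immediate early genes, which answer many stimuli within minutes, had another order: Fos had 223, 389 and 489 CPM in LPS and 173, 183 and 327 CPM in LPS+LIPUS, and Fosb had 17.4, 62.5 and 85.2 CPM in LPS and 10.7, 12.1 and 51.0 CPM in LPS+LIPUS. Within LPS+LIPUS, library 3 was highest for both Fos genes and lowest for Hspa1b. Within LPS, library 1 was lowest for both Fos genes and highest for Hspa1b. The other ends did not mirror each other. Within LPS+LIPUS, library 1 was lowest for both Fos genes but library 2 was highest for Hspa1b. Within LPS, library 3 was highest for both Fos genes but library 2 was lowest for Hspa1b.

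**Figure D4:**
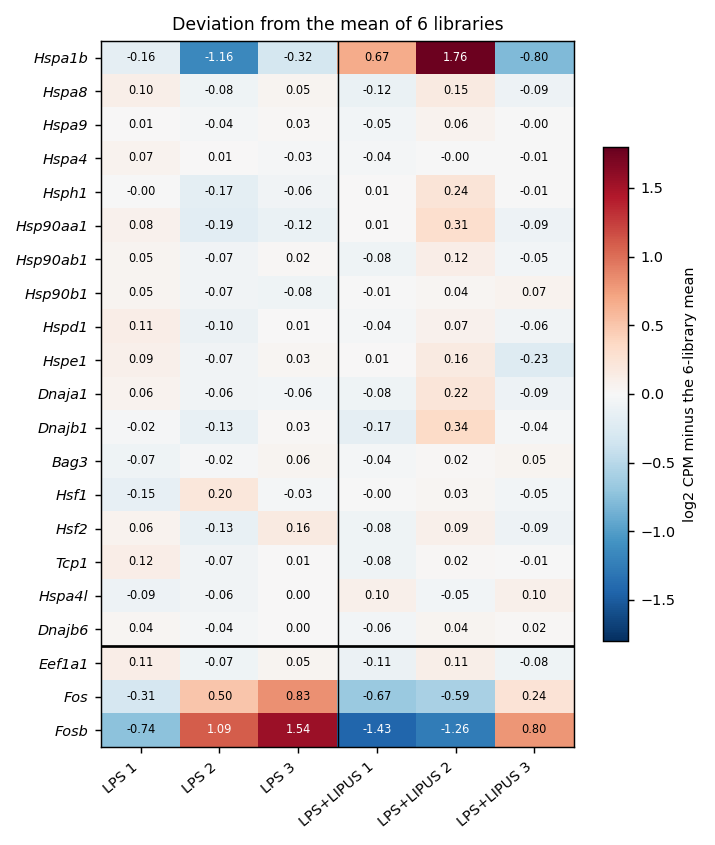
Log2 CPM of each gene in each library minus its mean over the 6 libraries, for 18 chaperone genes and, below the line, Eef1a1, Fos and Fosb. Hspa1b spans -1.16 in LPS library 2 to 1.76 in LPS+LIPUS library 2, while most other chaperone genes stay near 0.

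Genes that work with the members were counted by list. Of 14 tested HSF1 targets outside the members 6 had positive and 8 negative signs, and 0 passed the adjusted test. Chordc1, an HSP90 partner, had a log2 fold change of 0.11 ± 0.072, and Slc5a3, an inositol transporter, 0.16 ± 0.059 with each LPS+LIPUS library above each LPS library and an edgeR adjusted p of 0.910. Of 17 HSP90 co-chaperones 11 were positive and 6 negative. Fnip1, a folliculin partner that slows the HSP90 ATPase, had 135, 114 and 141 CPM in LPS and 150.0, 156 and 161 CPM in LPS+LIPUS, non-overlapping groups, a log2 fold change of 0.26 ± 0.067 and an edgeR adjusted p of 0.628, and Ahsa2 had 0.15 ± 0.084.

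HSP70 exchange and adaptor genes had 3 positive and 8 negative signs of 11, with Sgta at -0.088 ± 0.052 and Hikeshi, which carries HSP70 into the nucleus on heating, at -0.13 ± 0.095. Prefoldin and CCT partners had 4 positive and 6 negative of 10, with Pfdn2 at -0.11 ± 0.068 and Vbp1 at 0.19 ± 0.12. Regulators of HSF1 had 4 positive and 8 negative of 12 tested, with Sirt1 at -0.11 ± 0.13 and Gsk3b at 0.042 ± 0.054. Mitochondrial proteostasis genes had 5 positive and 4 negative of 9, with the ClpXP protease subunits Clpx at -0.14 ± 0.067 and Clpp at -0.14 ± 0.084. None of these lists held a gene past the adjusted test.

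Lists of other stimuli were read the same way, also with 0 genes past the adjusted test. Of 4 cold-inducible genes 3 were positive, with Rbmx at 0.093 ± 0.081 and Srsf5 at 0.043 ± 0.051. All 4 metal-responsive genes were negative, with Slc30a1, a zinc exporter, at -0.18 ± 0.079 and the metallothionein Mt1 at -0.057 ± 0.054. Of 17 immediate early genes 10 were negative and 7 had an unadjusted edgeR p under 0.05, where 4.61% of all tested genes did. For all 17 the groups overlapped in CPM, and the list was chosen with earlier results known. Fos stood at -0.69 ± 0.22 (edgeR adjusted p = 0.794) and Klf2 at -0.37 ± 0.13. Among macrophage markers 4 were positive and 6 negative, with Ptprc at 0.15 ± 0.051 and Cd68 at -0.054 ± 0.055.

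Transcript counts were tested in the same way. The members had 264 transcripts in the table, 226 of them tested, and 0 passed an edgeR adjusted p of 0.05, as 0% of 52257 transcripts did. With limma-voom 0 member transcripts and 0% of all 52257 were called. Without adjustment 7 member transcripts had p under 0.05, from Hspa1b, Hsph1 (3 transcripts), Dnajc25, Hspa2 and Dnajb6. That is 3.10% of the tested member transcripts, where 5.38% of all 52257 had p under 0.05. The Hspa1b transcript had a log2 fold change of 1.39 ± 0.35 and an edgeR adjusted p of 0.255. A read may count for several transcripts in this table, so the Hsph1 transcripts are not separate evidence.

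The authors' deposited table lists 2 members among its changed genes, Hspa1b with a log2 fold change of 1.39 and a p-value of 0.0026, and Dnajc28 with 1.03 and 0.028. The authors' deposited table names 0.898% of its 39089 genes as changed, and its p-values are unadjusted. Their list also uses a log2 fold change threshold of 1. Dnajc25, Hspa2 and Hsph1, at 0.36, -0.66 and 0.16, have deposited p-values under 0.05 and are not listed. Of the 39089 genes 18309 had no count, against 6 of the 88 members, so the 0.898% is not a matched share.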

How the data were processed

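RNA of RAW264.7 cells was sequenced as 6 poly(A)-selected, paired-end Illumina libraries, per the labels' protocols. The submitters' processing notes list bcl2fastq and, as the genome build, mm10. How reads were aligned, counted and assigned to a strand is not given in the sources used here. The authors deposited raw read counts per gene and per transcript. Beside the counts the authors' gene table gives TPM, computed from the count and the gene length per the file headers. The authors' deposited comparison table holds a log2 fold change (LPS+LIPUS over LPS) and an unadjusted p-value per gene. Without stated strand, reads of overlapping genes cannot be told apart.

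Counts were fitted on the whole table in R 4.3.3 with edgeR 4.0.16's quasi-likelihood test, two-sided, with TMM scaling, filterByExpr (minimum count 10), group as the only term and Benjamini-Hochberg adjustment at 0.05 over the 12571 genes tested. The median standard error of a log2 fold change was 0.090. Fold changes are log2 and are given ± SE. CPM uses TMM-scaled library sizes, and levels are compared between genes only in TPM. Alternatives used DESeq2 1.42.0, limma 3.58.1 (voom), the edgeR exact test, other scalings and filters, a replicate block and leaving out each library. Intervals on summed reads are exact at 95% and cover counting error only.

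Members and gene lists were chosen with earlier results of these data known. Named genes were a fixed set of 18, then in each class the 3 tested members with the smallest p and the most abundant by TPM, and in each other list the 2 tested genes with the smallest p; Hspa1l, Hspa12a, Dnajb6, Fosb and Eef1a1 were named after their values were seen. Gene positions are those of the deposited table, promoter windows are RefSeq's for GRCm38.p6, and transcript sequences are from GENCODE.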

Additional observations from a re-analysis of the deposited data

How the results depend on the processing

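With 3 libraries a group and a median standard error of 0.090, small shifts in single genes lie under what these counts resolve, and genes below the filter rest on few reads. Over all genes the count called was 0 in the edgeR quasi-likelihood fit, 7 with the edgeR exact test, 31 with no filter on low counts and 5 with the replicate block, and 0 to 6 when 1 library was left out. Among members the count was 1 (Hspa1b) with no filter, 0 to 1 with 1 library left out, and 0 in every other alternative. Hspa1b had a log2 fold change of 1.38 with an edgeR adjusted p of 6.58e-26 with no filter, and 0.61 to 1.82 with 1 library left out; the cause was not tested. Over its other alternatives its adjusted p lay between 0.0019 and 0.9999. Member transcripts called numbered 1 (Hspa1b) with no filter, or 0.398% of those then tested, beside 0.361% of all transcripts then tested. With 1 library left out, 0 to 1 member transcripts were called, beside 0 to 10 over all transcripts. The log2 ratio of Hspa1a ran from -0.24 to 1.41. The difference of the summed pair ran from 3.63 to 18.4 CPM with 1 library left out. Members whose groups did not overlap numbered 2 in CPM and 3 in the deposited TPM, an alternative chosen after seeing the data.

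Same-numbered libraries did not deviate together, with correlations of 0.0089, -0.072 and 0.011 for numbers 1 to 3, so the numbers were not taken as pairs. The replicate block gave Hspa1b a log2 fold change of 1.20 with an edgeR adjusted p of 0.747 and called 0 members.

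Of 38 named members beside Hspa1b 19 kept their sign in all 14 alternatives, though 15 of these 19 moved by over 1.5 times with 1 library left out. The other 19 turned sign in at least 1, all with log2 fold changes of at most 0.10 in size; the cause was not tested. Outside left-out libraries Hsp90ab1 became 0.00091 with upper-quartile scaling, and Cct4 became 0.0016 with DESeq2 size factors, 0.0048 with upper-quartile scaling, 0.0016 in DESeq2 and 2.3e-05 in limma-voom. With 1 library left out, log2 fold changes ran from -0.13 to 0.016 for Hspa8, from -0.025 to 0.034 for Hspa9, from -0.071 to 0.037 for Hsp90ab1, from -0.065 to 0.040 for Hspd1, from -0.13 to 0.066 for Hspe1, from -0.068 to 0.10 for Dnaja1, from -0.062 to 0.21 for Dnajb1, from -0.0046 to 0.063 for Bag3, from -0.10 to 0.085 for Hsf1, from -0.14 to 0.0082 for Hsf2, from -0.083 to 0.0074 for Tcp1, from -0.015 to 0.12 for Hspa13, from -0.13 to 0.013 for Hspa14, from -0.21 to 0.014 for Hspb11, from -0.14 to 0.14 for Hspb6, from -0.033 to 0.039 for Cct4, from -0.0038 to 0.060 for Dnajb11, from -0.11 to 0.0099 for Bag4 and from -0.023 to 0.057 for Bag1.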
